A study of Homo sapiens with 24 samples.

Results

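SR4 was added to lonidamine in PANC1, a human cell line from a pancreatic ductal adenocarcinoma, and the RNA of 3 libraries from cells given both compounds was set against that of 3 from cells given lonidamine alone. These 6 libraries of the 24 in the series were chosen by their labels, and every gene of the table was used. The SR4 and lonidamine cells and the lonidamine cells were both grown in low-glucose DMEM with 10% serum and treated for 24 h, SR4 at 5 uM and lonidamine at 300 uM. The labels do not say whether the combination used the same doses, and the comparison assumes it. The same line given SR4 alone or vehicle, 3 libraries each, and BXPC3, another pancreatic cancer line given SR4 and lonidamine or lonidamine alone, 3 libraries each, served to ask where the response to SR4 differed. Nothing in the labels says whether the libraries of a group came from separate cultures, and each line is 1 population of cells, so p-values measure the spread between these libraries.

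SR4 is a code name for a compound known as an uncoupler, which lets protons back into the mitochondrial matrix without making ATP. Lonidamine is an inhibitor of energy metabolism whose known targets are the entry of pyruvate into mitochondria, the monocarboxylate transporters that export lactate, and respiratory complex II. Cells short of energy, amino acids or folding capacity are known to respond through AMPK, through the integrated stress response that runs by the transcription factor ATF4, and through the unfolded protein response of the endoplasmic reticulum (ER), in which the sensors ATF6, IRE1 and PERK raise the supply of chaperones.

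The libraries held 11603105, 10288020 and 10797652 gene counts with SR4 and lonidamine and 10380298, 11092580 and 11822495 with lonidamine alone, in the order of their numbers. Libraries of a group lay together and the groups lay apart, since the first principal component over the 12 PANC1 libraries, with 59.5% of the variance, placed the SR4 and lonidamine libraries at 56.5 to 57.1 and the lonidamine libraries between -5.69 and -3.59. SMAD4, a gene known to be deleted in BXPC3, was present in PANC1, at 142, 139 and 140.2 CPM with SR4 and lonidamine, against 63.9, 58.8 and 66.5 CPM with lonidamine alone. The sum over 10 ductal markers was 880.2 to 923.5 CPM (counts scaled to a common library size) against 1087 to 1199 CPM, led by KRT8. Markers of other cells were low or rested on 1 gene. The sum over 12 immune markers was 209.4 to 218.4 CPM with SR4 and lonidamine against 144.1 to 146.4 CPM with lonidamine, nearly all from the lysosomal gene CD68, while PTPRC, CD3E, CD3D, CD163 and NKG7 had no count in the 6 libraries. Endothelial and acinar marker sums stayed below 1 CPM in each of the 6 libraries. Fewer living cells of a kind and less RNA per cell cannot be told apart in such bulk data. The lonidamine libraries varied more in the sum of 7 nuclear-retained RNAs, a sign of RNA quality or nuclear share. That sum was 2531 to 2619 CPM with SR4 and lonidamine and 2123 to 2805 CPM with lonidamine, and its part in the results was not tested.

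Adding SR4 to lonidamine raised genes of ER folding, ribosome making, snoRNA hosting and cell division and lowered genes of antigen presentation, glycolysis, the matrix and fatty acid oxidation. Of 12514 genes tested, 4642 rose (37.1%) and 4696 fell (37.5%) at an adjusted p below 0.05 by the quasi-likelihood test of edgeR after Benjamini-Hochberg adjustment, so 74.6% of all genes were called. At least 2-fold changes were fewer, with 905 rises and 1186 falls. The median change over all genes was -0.02 log2 and the median size of a change was 0.465 log2. Library sizes were scaled on the premise that most genes keep their level, which draws this median towards 0. Each change is thus relative to the other genes, and a rise or fall of all RNA would not be seen. Because most genes passed, a list's count is read against 37.1% and 37.5%, and its median against -0.02. In what follows a log2 change is SR4 and lonidamine over lonidamine unless another comparison is named, with its standard error (SE) after ±, and CPM values are means with their SD or the values of the 3 libraries in the order of their numbers.

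The largest rises included signalling and stress genes. MFSD2A, a lysophospholipid transporter (chromosome 1, 39955112 to 39969968, hg38 as in all positions of genes given here), stood at 53.7, 61.8 and 54.0 CPM with SR4 and lonidamine, against 3.14, 3.23 and 4.11 CPM with lonidamine alone, a rise of 4.0 ± 0.13 log2. ATF3, a stress-induced transcription factor of the ATF family (chromosome 1, 212565334 to 212620777), had 616, 618 and 595 CPM with SR4 and lonidamine, against 84.4, 87.9 and 84.3 CPM with lonidamine alone, a rise of 2.83 ± 0.040 log2 (edgeR, adjusted p = 4.69e-28). In both genes every library with SR4 lay above every library without it, as the choice of the 10 largest required and as held for 37.6% of all genes. PPM1K, a mitochondrial phosphatase that activates the breakdown of branched-chain amino acids, had 46.0, 43.1 and 37.9 CPM with SR4 and lonidamine, against 4.62, 5.24 and 4.69 CPM with lonidamine alone. DUSP8, a phosphatase of stress-activated kinases, had 26.9, 29.2 and 28.4 CPM with SR4 and lonidamine, against 3.33, 3.84 and 2.71 CPM with lonidamine alone. FOSB, an immediate early gene of the AP-1 family, was low in all libraries, at 11.4, 9.09 and 9.34 CPM with SR4 and lonidamine, against 1.39, 1.22 and 1.23 CPM with lonidamine alone. The circadian gene PER1 rose by 2.72 ± 0.096 log2 and CSRNP1, a nuclear protein with cysteine and serine rich stretches, by 2.64 ± 0.14. The other 3 of the 10 largest were ARFGEF3 and the zinc finger genes ZNF550 and ZNF331, with rises in that order of 2.71 ± 0.10, 2.69 ± 0.086 and 2.57 ± 0.054.

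Among the largest falls were secreted and surface proteins. HAS3, a synthase of the matrix sugar hyaluronan (chromosome 16, 69105564 to 69118719), had 0.438, 0.293 and 0.467 CPM with SR4 and lonidamine, against 17.5, 18.0 and 17.1 CPM with lonidamine alone, and fell by 5.40 ± 0.21 log2. PLAU, the urokinase that activates plasminogen (chromosome 10, 73909177 to 73917497), had 43.9, 47.6 and 43.1 CPM with SR4 and lonidamine, against 415, 412 and 413 CPM with lonidamine alone, and fell by 3.20 ± 0.044 log2 (edgeR, adjusted p = 3.04e-28). The groups did not overlap in either gene, which the choice of these genes required and which held, with SR4 lower, for 38.1% of all genes. CX3CL1, a membrane-bound chemokine, had 8.77, 9.97 and 6.91 CPM with SR4 and lonidamine, against 117, 102 and 113 CPM with lonidamine alone. ADAMTS15, a secreted protease, changed by -4.29 ± 0.16 log2, TNFRSF1B, a receptor for tumour necrosis factor, by -3.24 ± 0.21, and PLIN4, a lipid droplet coat protein, by -3.07 ± 0.13. GRIN2A and NPTX1, best known from synapses, changed by -3.60 ± 0.14 and -3.49 ± 0.22. FAM43A and the sugar transporter SLC2A12 completed the 10, with changes of -3.13 ± 0.095 and -3.09 ± 0.27.

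**Figure D1:**
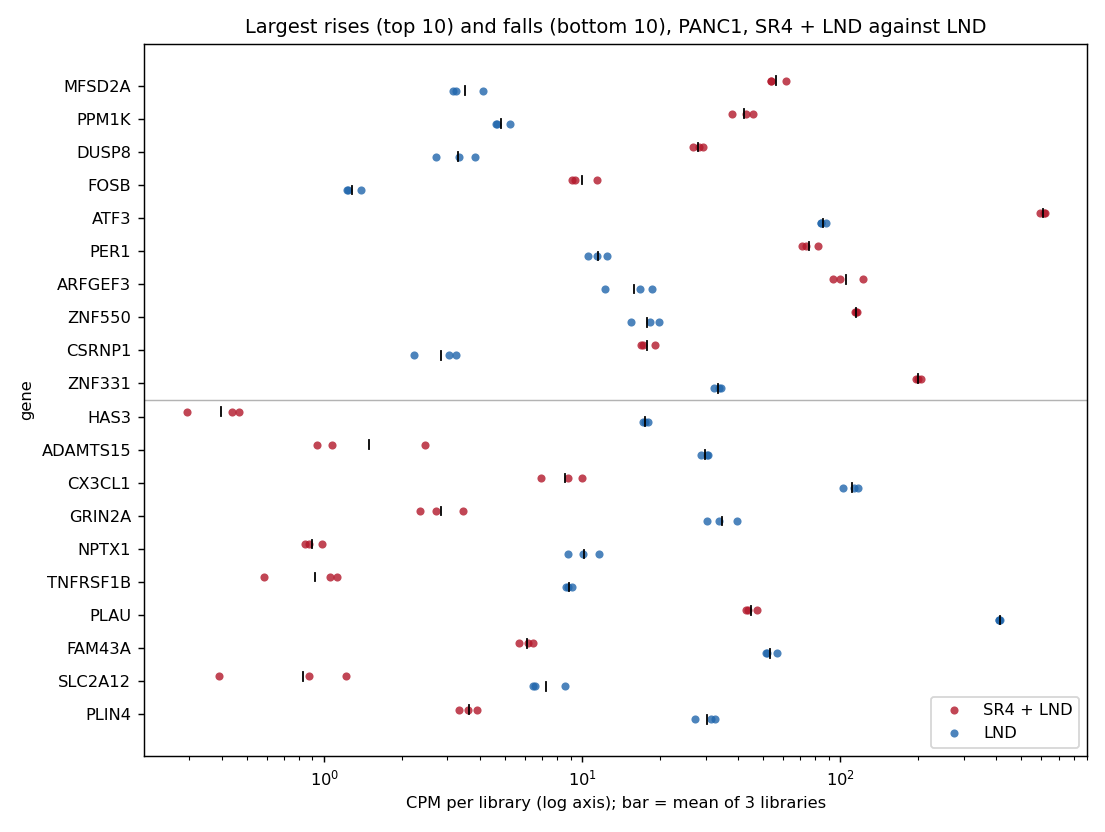
CPM of the 10 genes that rose most (above the line) and the 10 that fell most (below it) in each PANC1 library, on a log axis, with bars at group means. In these 20 genes, chosen for it, no library of 1 group lies among those of the other: ATF3 sits near 610 CPM with SR4 and lonidamine and near 86 CPM with lonidamine.

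ER folding genes rose almost as a whole. Of 29 tested genes for ER chaperones, sensors and ER-associated degradation, 26 rose (37.1% of all genes did), 12 of them by at least 2-fold, 1 fell and 2 were not called, with a median of 0.65 log2. HSPA5, the main ER chaperone also called BiP (chromosome 9, 125234853 to 125241330), stood at 10237, 10203 and 10353 CPM with SR4 and lonidamine, against 3289, 3465 and 3457 CPM with lonidamine alone, a rise of 1.59 ± 0.029 log2. HSP90B1, the ER member of the HSP90 family, had 2655, 2675 and 2668 CPM with SR4 and lonidamine, against 880.2, 917 and 899 CPM with lonidamine alone. HERPUD1, which organises the removal of misfolded proteins (chromosome 16, 56932048 to 56944863), rose by 2.05 ± 0.048 and DNAJB9, a co-chaperone of HSPA5, by 1.95 ± 0.056. Every library with SR4 exceeded every library without it in these 4 genes, as in 37.6% of all genes. Summed over the 29 genes, the level was 22828 ± 49.1 CPM with SR4 and lonidamine and 11272 ± 236 CPM with lonidamine (SD, n = 3 each). The sensors rose as well: ATF6 by 1.07, EIF2AK3, which encodes PERK, by 1.43, ERN1, which encodes IRE1, by 0.55, and XBP1, the transcript IRE1 splices, by 0.94 log2. EDEM2, a mannosidase-like protein of ER-associated degradation, was the gene that fell (-0.56), and EDEM1 (-0.08) and HYOU1 (-0.04) were not called.

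Promoters of the genes of this list, whichever way they moved, were searched for the ER stress response element (ERSE). The stretch ran from 250 bases before to 50 after the RefSeq start on GRCh38.p14. ERSE was here CCAAT and CCACG with 9 bases between them on either strand. Of the 29 genes 25 had a promoter entry and 6 of these (24.0%) held the element, against 0.144% of the 9737 promoters of all genes tested and 0.0806% of all 27305 promoters. HSPA5 and HSP90B1, described above, both held it. The 250 bases before the start are printed 5′ to 3′ on the gene's strand with each match in capitals, HSPA5 from chr9:125241344-125241593 (minus strand) with 1 match and HSP90B1 from chr12:103930160-103930409 (plus strand) with 2, of which the nearer to the start lies on the opposite strand.
HSPA5: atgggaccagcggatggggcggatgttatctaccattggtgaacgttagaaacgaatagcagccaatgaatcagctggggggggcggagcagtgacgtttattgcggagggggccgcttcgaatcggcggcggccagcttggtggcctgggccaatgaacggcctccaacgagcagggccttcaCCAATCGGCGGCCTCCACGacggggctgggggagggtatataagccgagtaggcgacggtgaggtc
HSP90B1: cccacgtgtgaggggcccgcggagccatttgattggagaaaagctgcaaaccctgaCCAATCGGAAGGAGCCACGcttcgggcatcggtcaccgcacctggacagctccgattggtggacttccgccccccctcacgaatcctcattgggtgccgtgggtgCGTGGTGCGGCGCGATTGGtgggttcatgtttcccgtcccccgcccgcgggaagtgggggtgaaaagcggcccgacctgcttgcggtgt
A match describes letters and says nothing of binding. The shares were counted over the whole list and do not depend on how its genes responded.

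The integrated stress response did not move as 1 block. Of 38 tested targets of ATF4, 16 rose and 19 fell, with a median of -0.10 log2, and ATF4 itself had 594, 604 and 594 CPM with SR4 and lonidamine, against 580.4, 575 and 574 CPM with lonidamine alone, a difference of 0.052 ± 0.035 that was not called (adjusted p = 0.183 by edgeR). The targets that rose included regulators of the stress response. DDIT3, the factor CHOP, had 271, 279 and 275 CPM with SR4 and lonidamine, against 142, 147 and 148 CPM with lonidamine alone. TRIB3, a pseudokinase that restrains ATF4, had 498, 487 and 491 CPM with SR4 and lonidamine, against 258, 258 and 263 CPM with lonidamine alone. PPP1R15A, the phosphatase subunit that ends the block of translation, had 303, 307 and 293 CPM with SR4 and lonidamine, against 111, 117 and 113 CPM with lonidamine alone. FGF21, a stress hormone, was counted 93 times over the 3 SR4 and lonidamine libraries and 3 times over the lonidamine libraries, a ratio of 33.0 with a 95% counting interval of 10.9 to 163. The falls included GDF15, a secreted stress signal (chromosome 19, 18382170 to 18389176), at 65.0, 71.3 and 63.8 CPM with SR4 and lonidamine, against 226, 211 and 222 CPM with lonidamine alone, a change of -1.72 ± 0.049 log2. SLC7A5, the leucine transporter, had 293, 296 and 305 CPM with SR4 and lonidamine, against 901, 873 and 869 CPM with lonidamine alone. PSAT1, an enzyme of serine synthesis, changed by -0.84 ± 0.038 and the hormone STC2 by -0.79 ± 0.058. ASNS and CHAC1, a pair often used as readouts of ATF4, rose by 0.25 ± 0.041 and 0.21 ± 0.052.

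Genes that charge tRNA mostly rose, and amino acid transporters split. Of 19 cytosolic tRNA synthetases 15 rose and 3 fell, with a median of 0.30 log2. FARSA, a subunit of phenylalanyl-tRNA synthetase, had 95.2, 98.6 and 92.6 CPM with SR4 and lonidamine, against 50.1, 50.3 and 49.4 CPM with lonidamine alone, and RARS, for arginine, rose by 0.69 ± 0.041. Of 17 amino acid transporters 7 rose and 7 fell. SLC3A2, the heavy chain that pairs with SLC7A5, rose by 0.73 ± 0.039, whereas SLC7A5 fell by 1.56 ± 0.034 and SLC38A2, which imports glutamine and other small amino acids, fell by 0.53 ± 0.036. In serine and one-carbon metabolism 6 of 19 rose and 10 fell.

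snoRNA host genes had the largest median of the lists tested, 1.24 log2, with 14 of 16 higher and 1 lower. These transcripts carry small nucleolar RNAs in their introns, and many of them are degraded while translated. TAF1D (chromosome 11, 93729948 to 93784391) had 298, 299 and 307 CPM with SR4 and lonidamine, against 77.1, 65.1 and 64.5 CPM with lonidamine alone, a rise of 2.13 ± 0.049 log2. SNHG1 had 149, 143 and 150.0 CPM with SR4 and lonidamine, against 49.3, 42.8 and 41.8 CPM with lonidamine alone, and GAS5 had 329.9, 329 and 315 CPM with SR4 and lonidamine, against 151, 153 and 146 CPM with lonidamine alone. ZFAS1 rose by 1.36 ± 0.047. SNHG3 was the member that fell (-0.64) and SNHG5 was not called (-0.08). The labels do not say whether counting used strand, so reads of antisense hosts such as ZFAS1 and of genes that overlap them cannot be told apart.

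Ribosome biogenesis genes rose in 21 of 29 cases and fell in 3, with a median of 0.63 log2. MYC, a factor that drives ribosome production, had 189.7, 188 and 192 CPM with SR4 and lonidamine, against 68.9, 72.9 and 73.1 CPM with lonidamine alone. RRP12 and NOLC1, which act in the maturation and traffic of ribosomal precursors, rose by 1.36 ± 0.038 and 1.10 ± 0.035, and POLR1B, the second subunit of RNA polymerase I, had 227, 223 and 235 CPM with SR4 and lonidamine, against 86.5, 92.9 and 94.3 CPM with lonidamine alone. POLR1A, the largest subunit, was among the falls (-0.48). The ribosomal proteins did not rise with them: of 77, 10 rose, 29 fell and 38 were not called, with a median of -0.07 log2. RPL24 had 319, 321 and 322 CPM with SR4 and lonidamine, against 476, 508 and 484 CPM with lonidamine alone. Ribosomal protein genes have many near-identical pseudogenes, which makes their counts uncertain.

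**Figure D2:**
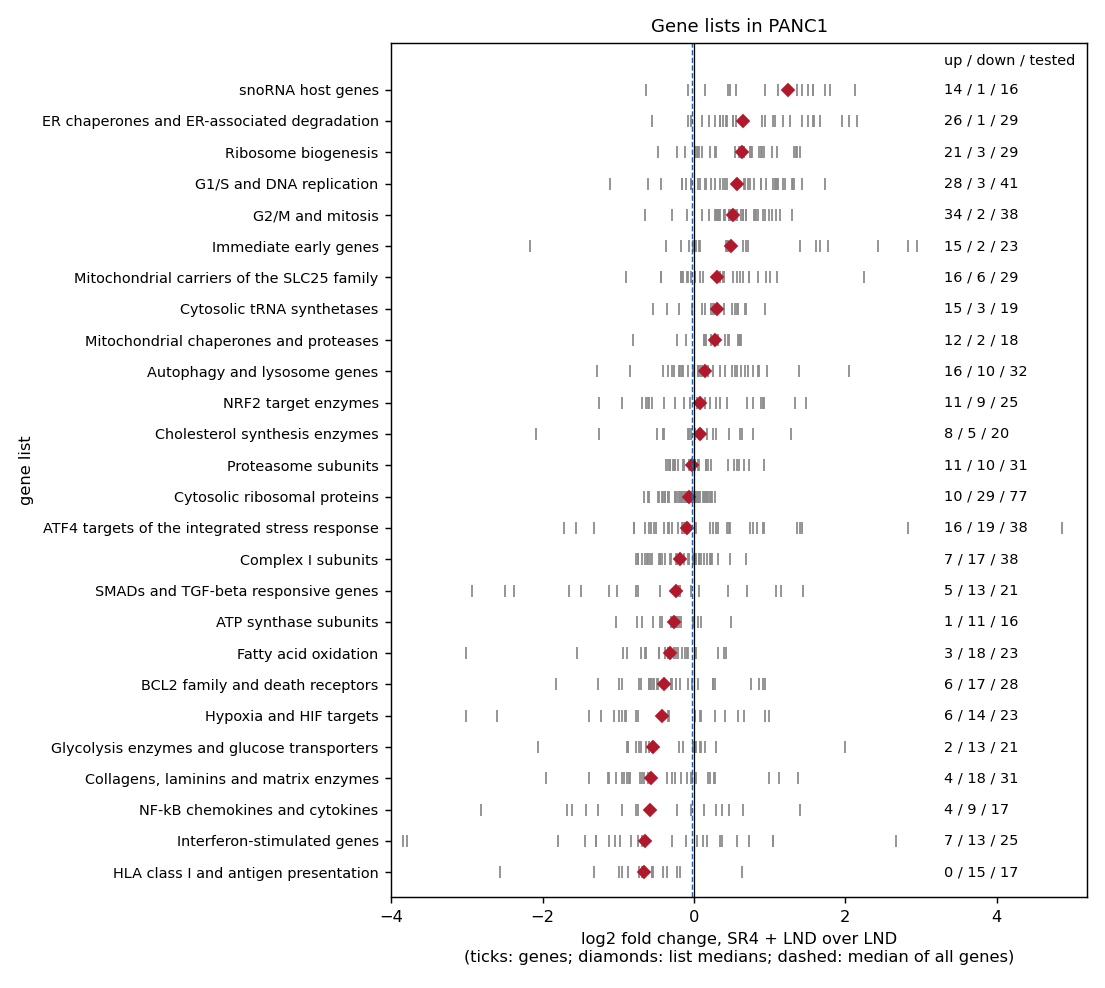
Log2 change of SR4 and lonidamine over lonidamine for the tested members of 26 gene lists (grey ticks), with the list median (diamond) and the counts that rose, fell and were tested. snoRNA hosts (median 1.24) and ER folding genes (0.65) stand at the top and antigen presentation (-0.66) at the bottom, and 1 member lies outside the axis.

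Cell division genes were higher with SR4 and lonidamine than with lonidamine alone. Of 38 genes of G2 and mitosis 34 rose and 2 fell, with a median of 0.52 log2, and of 41 genes of the G1/S transition and DNA replication 28 rose and 3 fell, with a median of 0.57. TPX2, a spindle assembly factor (chromosome 20, 31739271 to 31801805), had 756, 736 and 767 CPM with SR4 and lonidamine, against 294, 317 and 313 CPM with lonidamine alone, a rise of 1.29 ± 0.035 log2. ANLN, a scaffold of the cleavage furrow, had 309.6, 299 and 321 CPM with SR4 and lonidamine, against 132, 158 and 148 CPM with lonidamine alone. KIF11, a kinesin that separates spindle poles, had 131, 129 and 133 CPM with SR4 and lonidamine, against 63.6, 66.4 and 68.3 CPM with lonidamine alone. The rise was smaller in CCNB1, the mitotic cyclin (0.28 ± 0.047), TOP2A, a topoisomerase (0.52 ± 0.036), and MKI67, the proliferation marker (0.39 ± 0.074). Among replication genes CDC6, which loads the replicative helicase (chromosome 17, 40287633 to 40304657), had 80.9, 81.2 and 83.1 CPM with SR4 and lonidamine, against 25.0, 22.7 and 26.2 CPM with lonidamine alone. MCM5 and MCM7, subunits of that helicase, rose by 1.32 ± 0.058 and 1.10 ± 0.043, and the clamp loader subunit RFC4 by 1.29 ± 0.060. RRM2, the small subunit of ribonucleotide reductase, outside that list, was lower, at 74.6, 68.5 and 72.4 CPM with SR4 and lonidamine, against 95.6, 102 and 102 CPM with lonidamine alone, a change of -0.48 ± 0.052. CCNE2, the late G1 cyclin, was not called (-0.16 ± 0.17), and TYMS, thymidylate synthase, differed by -0.12 ± 0.053, a call lost under DESeq2's size factors, without the low-count filter and on leaving out 5 of the 6 libraries in turn.

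Both lists remained below vehicle. The median change of SR4 and lonidamine over vehicle was -1.14 log2 for G2 and mitosis and -1.03 for G1/S, and that of lonidamine over vehicle, which shares the lonidamine libraries with the main comparison, was -1.79 and -1.83. For TPX2 the means were 753 ± 16.1 CPM with SR4 and lonidamine, 308 ± 12.5 with lonidamine, 694 ± 9.19 with SR4 and 925 ± 18.3 with vehicle (SD, n = 3 each).

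Promoters of the genes of both lists, whichever way they moved, were searched for the cell cycle homology region (CHR, TTTGAA) and for an E2F motif (TTTCCCGC), each on both strands. CHR stood in 22 of 32 G2 and mitosis promoters (68.8%), against 9.13% of the promoters of all genes tested and 15.4% of all promoters, and the E2F motif in 9 of 36 G1/S promoters (25.0%), against 2.69% and 1.66%. CCAAT, which is part of ERSE, stood in 24 of the 32 (75.0%), against 36.6% and 35.7%. The stretches shown are the 250 bases before the start of ANLN (chr7:36389612-36389861, plus strand), with 2 CHR matches side by side, of KIF11 (chr10:92592880-92593129, plus strand), with 1 CHR match on the opposite strand, and of MCM7 (chr7:100101398-100101647, minus strand), with 1 E2F match on the opposite strand, in capitals.
ANLN: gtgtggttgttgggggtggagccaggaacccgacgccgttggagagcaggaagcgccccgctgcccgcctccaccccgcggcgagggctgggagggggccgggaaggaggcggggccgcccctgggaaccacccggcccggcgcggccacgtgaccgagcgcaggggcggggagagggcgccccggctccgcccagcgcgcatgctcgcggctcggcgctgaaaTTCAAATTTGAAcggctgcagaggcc
KIF11: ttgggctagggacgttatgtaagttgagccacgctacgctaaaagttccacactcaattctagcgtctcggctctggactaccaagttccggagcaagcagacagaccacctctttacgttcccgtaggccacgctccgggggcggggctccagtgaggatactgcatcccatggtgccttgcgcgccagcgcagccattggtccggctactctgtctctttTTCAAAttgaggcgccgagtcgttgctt
MCM7: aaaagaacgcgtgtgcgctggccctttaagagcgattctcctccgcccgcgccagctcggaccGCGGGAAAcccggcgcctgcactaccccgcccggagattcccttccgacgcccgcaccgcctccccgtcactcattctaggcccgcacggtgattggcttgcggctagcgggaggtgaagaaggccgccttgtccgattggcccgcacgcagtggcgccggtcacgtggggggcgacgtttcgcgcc

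Brakes of the cell cycle and DNA damage genes moved in both directions. Of 19 D cyclins, CDK inhibitors and p53 targets 9 rose and 8 fell. GADD45A, a stress sensor, had 243, 239.8 and 242 CPM with SR4 and lonidamine, against 55.7, 49.5 and 49.1 CPM with lonidamine alone, and PLK2, a stress-induced kinase, rose by 1.68 ± 0.043. CCND1, cyclin D1, had 79.8, 70.8 and 76.0 CPM with SR4 and lonidamine, against 195, 190.1 and 194 CPM with lonidamine alone, a change of -1.35 ± 0.045, and CDKN1A, the inhibitor p21, fell by 0.58 ± 0.055.

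Immediate early genes mostly rose, 15 of 23, with 2 falls and a median of 0.48 log2. FOSL1, an AP-1 subunit, rose by 0.71 ± 0.040, and IER3, an early response gene that protects from cell death, had 33.7, 39.6 and 36.9 CPM with SR4 and lonidamine, against 169, 161 and 164 CPM with lonidamine alone, a change of -2.17 ± 0.055. Feedback genes of the ERK pathway were split, with 7 of 19 higher and 10 lower. SPRY4, an inhibitor of receptor tyrosine kinase signals, changed by -1.84 ± 0.058 and the receptor EPHA2 by -1.30 ± 0.039, and the phosphatase DUSP1 rose by 1.27 ± 0.050.

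In energy metabolism most glycolytic transcripts were lower, and HK2 and MPC1 were higher. Of 21 glycolysis enzymes and glucose transporters 13 fell and 2 rose, with a median of -0.54 log2. PKM, pyruvate kinase, had 805, 810.4 and 787 CPM with SR4 and lonidamine, against 1469, 1473 and 1454 CPM with lonidamine alone. TPI1 and PGAM1, enzymes of the middle of the pathway, changed by -0.89 ± 0.039 and -0.87 ± 0.041. HK2, the inducible hexokinase bound to mitochondria, went the other way, at 119, 112 and 117 CPM with SR4 and lonidamine, against 26.3, 31.7 and 28.9 CPM with lonidamine alone, a rise of 2.0 ± 0.061 log2. The glucose transporter SLC2A1 had 145, 151 and 153 CPM with SR4 and lonidamine, against 142, 159.5 and 145 CPM with lonidamine alone and was not called (0.0077 ± 0.053). LDHA, which makes lactate (chromosome 11, 18394388 to 18408425), had 303, 301 and 276 CPM with SR4 and lonidamine, against 691, 752 and 678 CPM with lonidamine alone, and SLC16A3, which exports it, fell by 1.10 ± 0.050. MPC1, 1 of the subunits of the mitochondrial pyruvate carrier that lonidamine blocks (chromosome 6, 166364919 to 166383013), had 70.8, 65.1 and 67.0 CPM with SR4 and lonidamine, against 13.6, 17.9 and 17.4 CPM with lonidamine alone, a rise of 2.05 ± 0.081. Its partner MPC2 differed by -0.27 ± 0.094, a call lost on leaving out lonidamine library 1 (-0.20) or 2 (-0.24). PDHX, a part of pyruvate dehydrogenase, rose by 0.81 ± 0.047.

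Respiratory chain genes were lower more often than higher, by small amounts, most clearly in the ATP synthase list. Among all genes 37.5% fell and 37.1% rose. Against these shares, falls in the complex I list and the complex III and IV list were only slightly more common. Rises were rarer there, and 14 and 8 genes were not called. Of 16 ATP synthase subunits 11 fell and 1 rose (median -0.27 log2), of 38 complex I subunits 17 fell and 7 rose (-0.18), and of 20 subunits of complexes III and IV 9 fell and 3 rose (-0.20). COX7B, of complex IV, had 43.1, 38.2 and 39.1 CPM with SR4 and lonidamine, against 84.4, 85.7 and 84.9 CPM with lonidamine alone. The electron carrier CYCS, cytochrome c, was higher, at 739, 735 and 768 CPM with SR4 and lonidamine, against 385, 429 and 405 CPM with lonidamine alone. The complex III and IV list, which counts CYCS, summed to 2236 ± 28.0 CPM with SR4 and lonidamine and 2219 ± 35.5 CPM with lonidamine (SD). The ATP synthase and complex I sums were lower with SR4 and lonidamine than with lonidamine. Of complex II, SDHA rose by 0.21 ± 0.051, SDHC fell by 0.60 ± 0.049 and SDHB was not called (0.026 ± 0.049). The table holds 0 genes of the mitochondrial chromosome, so the subunits encoded there are not analysed here. Fatty acid oxidation genes fell in 18 of 23 cases and rose in 3, with a median of -0.32. The largest fall of the list was that of ANGPTL4, a secreted lipase inhibitor and not an oxidation enzyme, which the hypoxia list also holds. ANGPTL4 had 7.80, 8.02 and 6.91 CPM with SR4 and lonidamine, against 58.0, 68.6 and 57.1 CPM with lonidamine alone. ACAA2, a thiolase, fell by 0.88 ± 0.067.

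Mitochondrial upkeep genes rose more often. Of 18 mitochondrial chaperones and proteases 12 rose and 2 fell (median 0.28 log2). HSPA9, the matrix HSP70, had 1807, 1808 and 1824 CPM with SR4 and lonidamine, against 1193, 1204 and 1192 CPM with lonidamine alone. HSPD1, the matrix chaperonin, fell by 0.22 ± 0.030. Of 29 carriers of the SLC25 family 16 rose and 6 fell (0.31), led by SLC25A42, a coenzyme A carrier, at 12.8, 12.1 and 12.9 CPM with SR4 and lonidamine, against 2.68, 2.18 and 3.04 CPM with lonidamine alone. TFB2M and POLRMT, which transcribe the mitochondrial genome, rose by 1.46 ± 0.067 and 1.15 ± 0.059, and the fusion protein MFN2 by 0.64 ± 0.034. AMPK genes rose in part: PRKAB1 and PRKAB2, its beta subunits, by 1.19 ± 0.054 and 1.26 ± 0.051, with MTOR, the growth kinase that AMPK opposes, at 1.06 ± 0.044. Over the whole list of AMPK, sestrin and mTORC1 genes 11 of 26 rose and 11 fell, 4 and 3 of them by at least 2-fold. The median was -0.03 log2 and the changes ran from -2.32 to 1.95.

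Cytosolic heat shock genes fell in 9 of 18 cases and rose in 6. HSPA8, the constitutive HSP70, had 1085, 1064 and 1055 CPM with SR4 and lonidamine, against 2199, 2289 and 2248 CPM with lonidamine alone, and HSP90AA1 fell by 1.0 ± 0.037, whereas the co-chaperone DNAJB4 rose by 1.35 ± 0.065. Redox and iron genes were mixed: 11 of 25 NRF2 targets rose and 9 fell. SRXN1, which repairs peroxiredoxins, had 340.3, 335 and 331 CPM with SR4 and lonidamine, against 128, 137 and 136 CPM with lonidamine alone, whereas the peroxiredoxin PRDX1 fell by 1.25 ± 0.036. FTL, ferritin light chain, rose by 0.70 ± 0.042 and HMOX1, haem oxygenase, by 0.22 ± 0.038. Of 32 autophagy and lysosome genes 16 rose and 10 fell, with GABARAPL1, of the ATG8 family, at 61.7, 58.1 and 61.8 CPM with SR4 and lonidamine, against 14.1, 12.8 and 16.8 CPM with lonidamine alone. CD68, a lysosomal gene counted among the immune markers, was higher in the same libraries, and its part in this list was not tested.

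**Figure D3:**
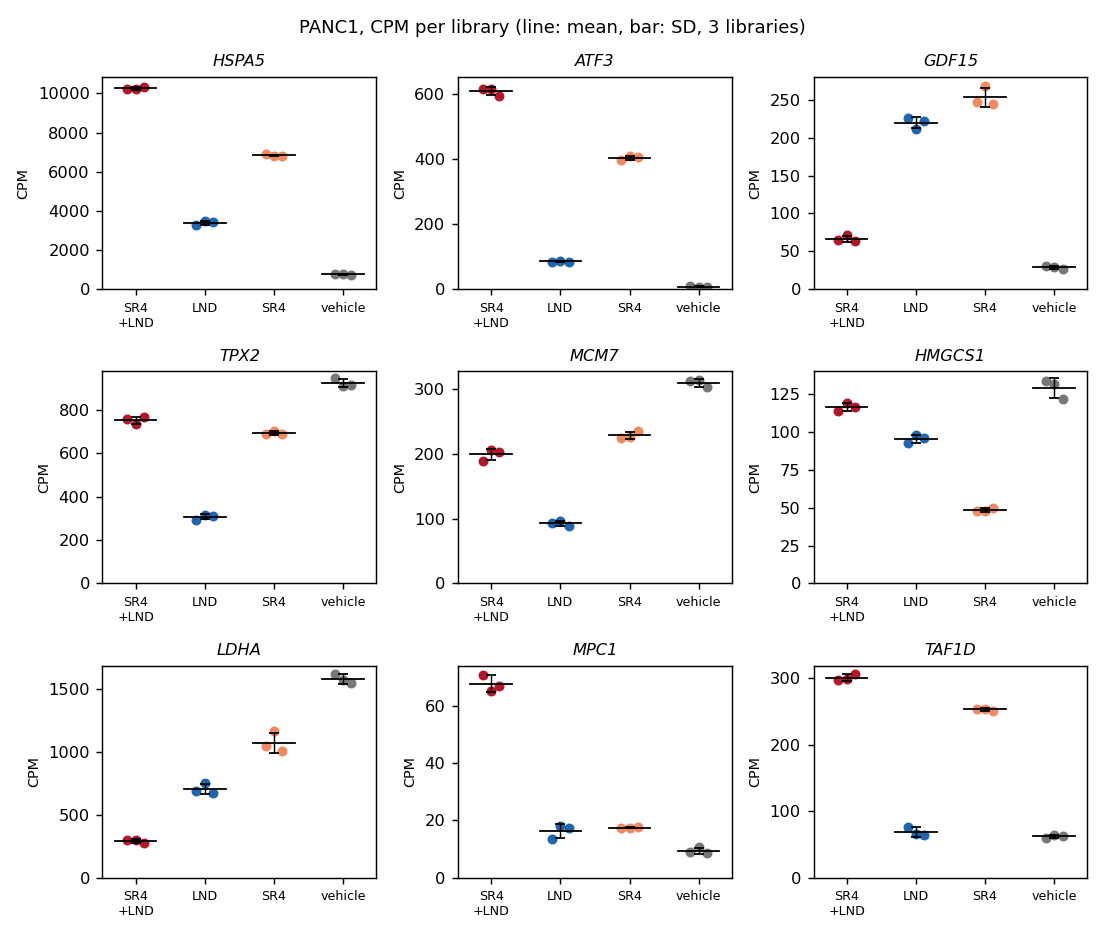
CPM in each library of 9 genes in the 4 PANC1 groups, with group mean and SD; every axis starts at 0. HSPA5, ATF3 and TAF1D are highest with SR4 and lonidamine, GDF15 lies lower there than with either compound alone, and TPX2 and MCM7 lie above lonidamine and below vehicle.

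In the surface, matrix and immune lists falls outnumbered rises. Of 17 genes of HLA class I and antigen presentation 15 fell, 0 rose and 2 were not called, with a median of -0.66 log2. B2M, the invariant chain of class I molecules, had 274, 283 and 272 CPM with SR4 and lonidamine, against 466, 455 and 455 CPM with lonidamine alone. TAPBP, which loads peptides, fell by 1.32 ± 0.046, and the trimming peptidase ERAP2 had 3.16, 3.32 and 3.18 CPM with SR4 and lonidamine, against 19.7, 19.0 and 18.4 CPM with lonidamine alone. Of 25 interferon-stimulated genes 13 fell and 7 rose (median -0.64), with IFI35 lower (-1.12 ± 0.083) and the factors STAT2 and IRF7 higher (1.04 ± 0.066 and 1.04 ± 0.080). Of 17 NF-kB chemokine and cytokine genes 9 fell and 4 rose. CSF1, the macrophage growth factor, had 9.99, 9.58 and 12.2 CPM with SR4 and lonidamine, against 81.8, 69.7 and 73.0 CPM with lonidamine alone, and the adhesion molecule ICAM1 fell by 1.68 ± 0.055.

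Matrix genes fell in 18 of 31 cases and rose in 4 (median -0.56 log2). TIMP2, a protease inhibitor, had 13.6, 15.4 and 14.2 CPM with SR4 and lonidamine, against 57.3, 53.9 and 57.0 CPM with lonidamine alone. COL18A1 and LAMC1, of basement membranes, changed by -0.69 ± 0.032 and -0.85 ± 0.043. COL1A1, also the highest fibroblast marker, had 15.5, 16.2 and 17.0 CPM with SR4 and lonidamine, against 33.5, 29.7 and 30.8 CPM with lonidamine alone, and the part of such cells in the result was not tested. The summed level of 10 fibroblast markers was 20.33 to 20.65 CPM with SR4 and lonidamine and 34.25 to 39.18 CPM with lonidamine, and COL1A2, DCN and FAP had no count in the 6 libraries. Of 21 SMADs and TGF-beta responsive genes 13 fell and 5 rose. SMAD3, a signal transducer, fell by 1.02 ± 0.038, whereas SMAD4 rose by 1.15 ± 0.051.

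Hypoxia genes fell in 14 of 23 cases and rose in 6, with a median of -0.42 log2. PLOD2 and P4HA1, which hydroxylate collagen, changed by -1.23 ± 0.046 and -1.06 ± 0.056, and NDRG1 had 24.1, 21.3 and 20.6 CPM with SR4 and lonidamine, against 39.6, 49.1 and 42.8 CPM with lonidamine alone. Of 28 genes of the BCL2 family and death receptors 17 fell and 6 rose (median -0.39). BCL2L1, the survival protein BCL-XL, had 201, 197 and 207 CPM with SR4 and lonidamine, against 388, 388 and 392 CPM with lonidamine alone, BIRC3 fell by 1.26 ± 0.047 and its relative BIRC2 rose by 0.94 ± 0.042. BBC3, the death inducer PUMA, was not called (0.25 ± 0.22). In a short list of aryl hydrocarbon receptor targets and vitamin D hydroxylase 5 of the 6 tested genes fell and 1 rose. The largest fall was that of CYP1B1, a cytochrome P450, at 67.9, 64.1 and 54.7 CPM with SR4 and lonidamine, against 421, 409 and 416 CPM with lonidamine alone.

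Whether SR4 acted alike with and without lonidamine was tested by the difference of its changes, SR4 and lonidamine over lonidamine minus SR4 over vehicle, which share no library. That difference was positive in 3858 genes (30.8%) and negative in 3760 (30.0%) of 12514 by edgeR. In 5461 genes both changes were called in the same direction. In 858 genes SR4 raised the transcript with lonidamine and lowered it without, and in 735 it lowered it with lonidamine and raised it without, the difference being called in each.

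Cell division genes differed in 1 direction throughout. The difference was positive in 41 of 41 G1/S genes and 38 of 38 genes of G2 and mitosis. With lonidamine the medians were 0.57 and 0.52 log2, and without it SR4 lowered 39 of 41 and 37 of 38, with medians of -0.97 and -0.83. Over all genes SR4 alone lowered 36.7% and raised 35.0%. KIF11 changed by 0.99 ± 0.047 with lonidamine and by -1.04 ± 0.043 without it, a difference of 2.02 ± 0.064. CDC6 changed by 1.73 ± 0.060 with and -0.94 ± 0.054 without, and FEN1, a replication nuclease, by 0.95 ± 0.077 and -1.87 ± 0.072.

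Stress targets differed in the other direction. For ATF4 targets the difference was negative in 36 of 38 and positive in 1. With lonidamine their median was -0.10 log2, and SR4 alone raised 36 of them (35.0% of all genes), with a median of 2.19. Lonidamine alone already held these genes above vehicle, with a median of 2.05 over the same lonidamine libraries. TRIB3 stood at 492 ± 5.68 CPM with SR4 and lonidamine, 259.7 ± 2.89 with lonidamine, 549 ± 15.0 with SR4 and 19.5 ± 2.84 with vehicle (SD, n = 3 each). GDF15 was 66.7 ± 4.02 CPM with both, 219.9 ± 7.67 with lonidamine, 253 ± 12.7 with SR4 and 28.8 ± 1.54 with vehicle, so the combination lay below each compound alone. Hypoxia genes (20 of 23), glycolysis genes (19 of 21) and ribosomal proteins (68 of 77) also had negative differences. VEGFA, the vascular growth factor, changed by -0.33 ± 0.054 with lonidamine and 2.62 ± 0.062 without, and SLC2A1 by 0.0077 ± 0.053 and 2.44 ± 0.060.

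Cholesterol synthesis enzymes went both ways when SR4 was added to lonidamine and fell with SR4 alone. Of 20 enzymes 8 rose and 5 fell with lonidamine (median 0.08 log2), and SR4 alone lowered 20 (-1.10), the difference being positive in 19 and negative in 1. HMGCS1, which makes the precursor of mevalonate (chromosome 5, 43289395 to 43313512), changed by 0.29 ± 0.046 with lonidamine and -1.41 ± 0.052 without. INSIG1, a sterol-regulated brake on the pathway, changed by -0.23 ± 0.051 and -1.55 ± 0.057. For the snoRNA hosts both changes were up, with medians of 1.24 and 1.45, and the difference was positive in 2 and negative in 7 of 16. ER folding genes had 18 positive and 8 negative differences of 29. HSPA5 rose less with lonidamine (1.59 ± 0.029) than without (3.16 ± 0.031), and HSP90B1 rose more (1.57 ± 0.031 against 0.48 ± 0.031), each difference being called.

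**Figure D4:**
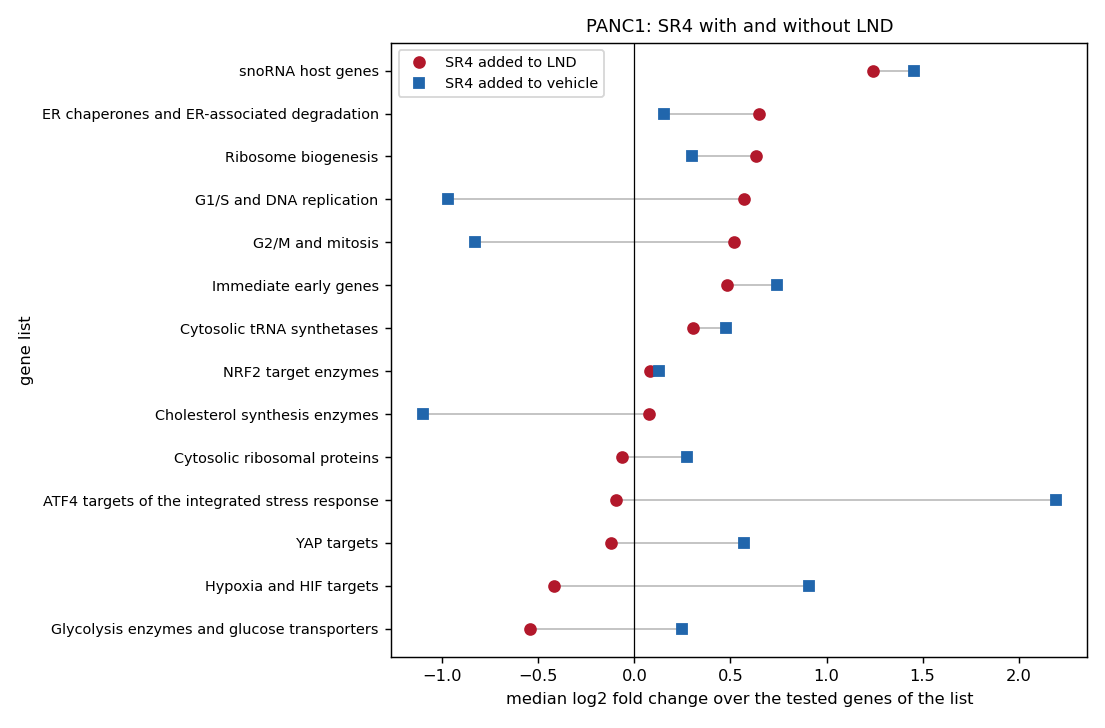
Median log2 change of 14 gene lists when SR4 was added to lonidamine (circles) and to vehicle (squares) in PANC1. G1/S and mitosis genes lie right of 0 with lonidamine and left of it without, and ATF4 targets lie at -0.10 with and 2.19 without lonidamine.

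The same addition in BXPC3 was set against that in PANC1 in a fit of all 24 libraries. Of 13930 genes tested there, the change was more positive in PANC1 in 3619 (26.0%) and more negative in 4166 (29.9%). The share of positive among called differences was 46.5%, 49.0% with DESeq2's size factors and 46.5% without lonidamine library 1 of PANC1. It was 54.4% to 55.3% on leaving out any of the other 11 libraries compared, and the cause was not tested. Which direction prevails over all genes is therefore not settled. The median difference over all genes was -0.055 log2, against which differences of genes and lists are read. Changes within a line come from separate fits, so a gene's difference need not equal the gap between its 2 changes. Of the 13930 genes 11538 were also tested in the separate fit of each line. Among those 11538, 1875 rose in both lines and 1784 fell in both. In 1021 genes PANC1 rose and BXPC3 fell and in 1008 the reverse held, with the difference called.

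Mitotic genes went opposite ways. In BXPC3 30.1% of the 12920 genes tested in that line rose and 30.7% fell. Of 38 mitotic genes 34 rose in PANC1, and 35 fell and 0 rose in BXPC3. The medians were 0.52 log2 in PANC1 and -1.04 in BXPC3, and 37 differences were positive. TPX2 changed by 1.29 ± 0.035 in PANC1 and -1.39 ± 0.058 in BXPC3, a difference of 2.61 ± 0.066. ANLN changed by 1.08 ± 0.046 and -1.65 ± 0.078. Ribosome biogenesis did likewise, with medians of 0.63 in PANC1 and -0.61 in BXPC3, where 27 of 29 fell, and 27 positive differences. MYC changed by 1.40 ± 0.042 in PANC1 and -0.78 ± 0.043 in BXPC3.

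Cholesterol enzymes rose in 8 of 20 cases in PANC1 (median 0.08 log2), against 19 in BXPC3 (1.65), and the difference was negative in 19. INSIG1 changed by -0.23 ± 0.051 in PANC1 and 2.62 ± 0.035 in BXPC3, and HMGCS1 by 0.29 ± 0.046 and 2.56 ± 0.037. Fatty acid synthesis genes had 17 negative differences of 20, with SCD, the desaturase, at -0.78 ± 0.062 in PANC1 and 1.02 ± 0.026 in BXPC3. YAP targets were mixed in PANC1, where 7 of 22 rose and 9 fell, and fell in 18 of the 20 tested in BXPC3, where 30.7% of all genes fell. CTGF and CYR61, matrix-bound growth regulators, rose by 1.46 ± 0.045 and 1.13 ± 0.037 in PANC1 and changed by -2.21 ± 0.23 and -3.08 ± 0.043 in BXPC3.

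ER folding and snoRNA host genes rose in both lines. In BXPC3 22 of 29 ER genes rose and 2 fell (median 0.43 log2), and 12 of 16 snoRNA hosts rose and 2 fell (0.90), where 30.1% of all genes rose. HSPA5 rose by 1.59 ± 0.029 in PANC1 and 0.96 ± 0.028 in BXPC3, with a difference of 0.56 ± 0.042 that was called. HERPUD1 rose by 2.05 ± 0.048 and 1.61 ± 0.043, and TAF1D by 2.13 ± 0.049 and 1.44 ± 0.064. Antigen presentation genes fell in 15 of 17 cases in PANC1, with 0 rises. In BXPC3 7 of the 17 fell and 5 rose, with a median of -0.04 log2, and 13 differences were negative.

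**Figure D5:**
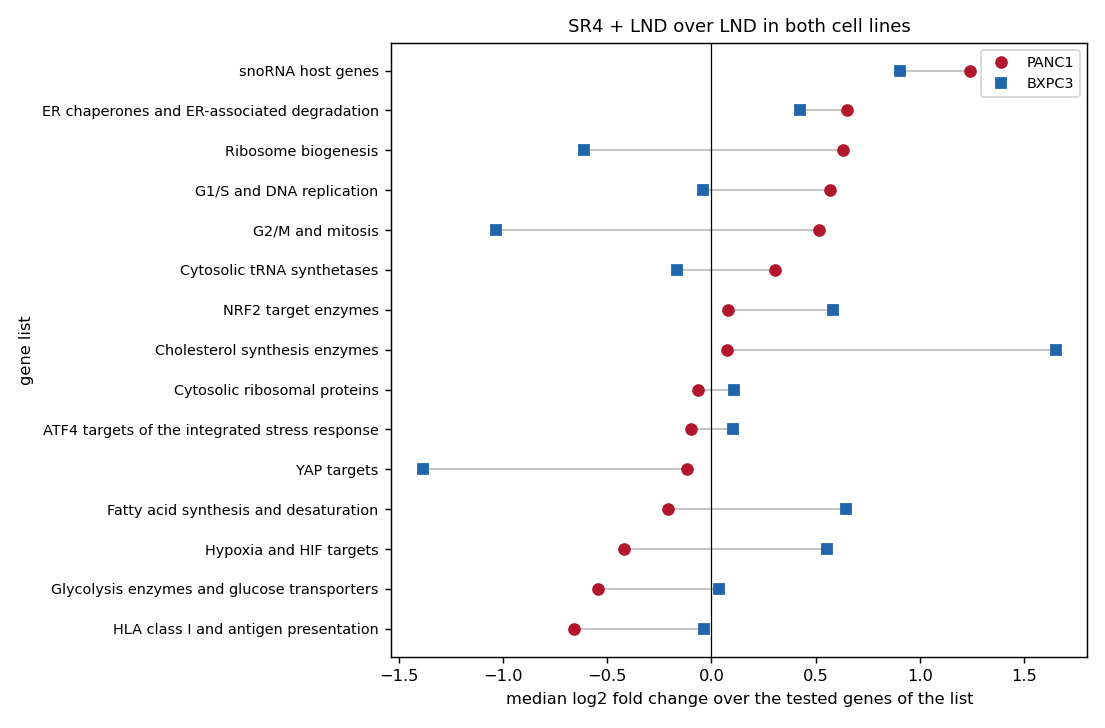
Median log2 change of 15 gene lists when SR4 was added to lonidamine in PANC1 (circles) and in BXPC3 (squares). Mitosis (0.52 and -1.04), ribosome biogenesis (0.63 and -0.61) and cholesterol synthesis (0.08 and 1.65) lie far apart, and snoRNA hosts (1.24 and 0.90) and ER folding (0.65 and 0.43) lie right of 0 in both.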

How the data were processed

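The authors deposited 1 table of raw gene counts per cell line, whole numbers for 25168 genes with symbols and hg38 coordinates. STAR 2.7.8a, Partek and DESeq2 are named, without their roles, in the submitters' processing notes. How reads were counted, with which annotation and strand, was not given in the sources used here. Per the labels' protocols, RNA was taken with RNeasy and libraries with KAPA mRNA Hyper Prep, which captures polyadenylated RNA.

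Library sizes were scaled by TMM (edgeR 4.0.16 in R 4.3.3), and genes were filtered by filterByExpr at a minimum count of 10 and tested by the quasi-likelihood test over the 4 PANC1 groups (12 libraries, 8 residual degrees of freedom, biological coefficient of variation 3.79%), with Benjamini-Hochberg adjustment at 0.05. An exact permutation of 3 against 3 cannot go below 0.1. A joint fit of 8 groups and 24 libraries compared the lines, where the column and the title of 1 BXPC3 SR4 library give different numbers, so it was used without one. The SE is the log2 change over the square root of F. CPM uses TMM-scaled library sizes. Counts of PANC1 replicates differed by more than sampling noise in every pair, so no library was taken as the same library sequenced again. That comparison cannot tell separate cultures from separate preparations of 1 culture.

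The 54 gene lists, the named genes and the motifs were chosen with earlier results of these data known, the ERSE motif after list values were seen. Of 1305 list entries 1262 matched by symbol, 40 by RefSeq synonym and 3 did not. Named genes were the 10 largest rises and falls among called genes whose mean log2 CPM reached 2 and whose groups did not overlap, up to 4 called members with the smallest adjusted p per list, a panel of metabolic and stress genes, the 5 most positive and negative differences with and without lonidamine, and the 5 largest opposite responses between lines in each direction. List members given with a log2 change and no SE were chosen after their values were seen. Promoters are RefSeq's on GRCh38.p14, 35116 entries, the first listed start of 27305 symbols. The pipeline was run on simulated counts in which few genes changed and only in the SR4 and lonidamine group. Most genes were called in the real data, so that run does not test the scaling or the rate of false calls here. Alternatives were DESeq2 1.42.0 size factors and test, no filter, a fit with replicate number as block, a fit of the compared groups only, a test against a 1.5-fold change and leaving out each library. Some results are not reported here.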

Additional observations from a re-analysis of the deposited data

Results flagged for a closer look

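SR4 changed 858 genes upwards with lonidamine and downwards without it, and 735 downwards with and upwards without, in each case with the difference itself called by edgeR at an adjusted p below 0.05. The most positive differences, SR4 with lonidamine minus SR4 alone, were those of EGR1, an immediate early factor (3.78 ± 0.22 log2), E2F2, a transcription factor of the E2F family (3.11 ± 0.28), FAM111B, a protease (3.06 ± 0.24), RAB26, a vesicle GTPase (2.87 ± 0.32), and FEN1 (2.82 ± 0.11). EGR1 stood at 8.94, 8.51 and 10.2 CPM with SR4 and lonidamine, 5.36, 5.94 and 6.25 with lonidamine, 2.72, 2.13 and 2.89 with SR4 and 26.3, 21.4 and 20.2 with vehicle.

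The most negative were HKDC1, a hexokinase (-5.06 ± 0.27 log2), CCND2, cyclin D2 (-4.99 ± 0.40), THBD, thrombomodulin (-4.95 ± 0.23), GDF15 (-4.85 ± 0.076) and LAMP3, a lysosomal membrane protein (-4.79 ± 0.11). LAMP3 stood at 81.4, 86.9 and 81.9 CPM with SR4 and lonidamine, 121, 132 and 124 with lonidamine, 62.2, 61.0 and 62.4 with SR4 and 3.93, 3.25 and 2.89 with vehicle.

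Between lines, of 11538 genes tested in each line and jointly, 1021 rose in PANC1 and fell in BXPC3 and 1008 did the reverse, with the difference called. The largest positive differences were those of KRT17, a keratin (8.67 ± 0.42 log2), ANKRD1, a YAP target (4.84 ± 0.18), CCND2 (4.27 ± 0.25), CYR61 (4.14 ± 0.059) and OASL, an interferon-induced gene (3.72 ± 0.40). KRT17 had 138 counts over the SR4 and lonidamine libraries of PANC1 and 1 over the lonidamine libraries, a ratio of 147 with a 95% counting interval of 25.9 to 5834, so its fitted difference depends on the prior count. The largest negative ones were those of BMF, a death inducer (-4.89 ± 0.26), ELF3, an epithelial factor (-4.76 ± 0.38), TNFRSF1B (-4.60 ± 0.26), THSD7A (-4.27 ± 0.17) and PRDM16, a transcriptional regulator (-4.20 ± 0.35). PRDM16 had 26.6, 24.7 and 26.3 CPM with SR4 and lonidamine, against 51.3, 45.4 and 56.7 CPM with lonidamine alone in PANC1, and changed by 3.15 ± 0.36 in BXPC3.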

How the results depend on the processing

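Against a 1.5-fold change 1670 genes rose and 1654 fell. On leaving out each library, 4464 to 4546 genes rose and 4446 to 4539 fell, 920 to 943 and 1162 to 1227 of them by at least 2-fold. The difference with and without lonidamine was positive in 3709 to 3909 genes and negative in 3588 to 3684, and that between lines in 3536 to 4222 and 3397 to 4063. Of 3165 values of 264 named genes under 12 alternatives, 3059 kept their direction and side of the threshold, 100 were no longer called, 2 became called and 4 changed sign. Those that did not keep both fell in 81 of the 264 genes. Many named genes were chosen for a large change or a small adjusted p, which favours keeping a call. The sign changes were in uncalled genes, SLC2A1 (0.0077 over all libraries, and -0.026 to 0.064 on leaving out each) and SDHB (0.026, and -0.0039 to 0.070). Same-numbered libraries of the 2 groups deviated from their means with correlations of -0.11, -0.011 and -0.070, so the numbers were not taken to pair them. With the replicate number as a block 4615 genes rose and 4656 fell, against 4642 and 4696 without it. The cause of these changes was not tested. At these depths genes near 1 CPM rest on few counts.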
